A study of Homo sapiens with 4 samples.

Results

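The genes described are 50 NF-kappaB subunits, inhibitors, adaptors, cytokines, chemokines and receptors. Their symbols come from a list drawn up with earlier results of these data known. The rule itself uses the measured level of a gene but not its difference between groups. Members with a mean of at least 1 CPM (the gene's count scaled to the size of its library) over the 4 libraries were kept for counting, which left 39 of 50, out of 20286 genes in the files. The other 11 are given by their counts. They were measured by RNA sequencing in HLE, an established cell line from a human liver cancer (hepatocellular carcinoma), in 2 libraries of cells with stable CYR61 expression and 2 of cells with a stable empty vector. Both groups were grown alike in serum-containing medium with no treatment, and per the series design each library came from its own culture of the whole stable population. CYR61, now named CCN1, is a secreted matrix protein. The labels do not say which promoter drives the introduced CYR61 or whether either stable population was made more than once, so the tests measure the spread between cultures of 1 population per group.

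NF-kappaB is a family of dimeric transcription factors held in the cytoplasm by inhibitor proteins of the IkappaB family. Receptors for tumour necrosis factor (TNF) and interleukin-1 act through TRAF and IAP proteins to have those inhibitors destroyed, and the freed dimers switch on cytokines, chemokines and their own inhibitors. Cytokines related to interleukin-6 act through the shared receptor subunit gp130, encoded by IL6ST, and the transcription factor STAT3, which induces SOCS proteins as a brake. In liver these pathways are known for driving the acute phase response and inflammation around tumours.

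The libraries held 21388465 and 16186988 estimated counts in CYR61-expressing cells and 19118548 and 21588822 in vector cells. CYR61 itself was at 8091 and 8620 CPM in the CYR61 libraries and at 221 and 218 CPM in the vector libraries, a log2 fold change of 5.25. Within each group the libraries differed along GC content. Across the 10378 genes with 5 CPM or more, GC content had a Spearman's rho of 0.779 with CYR61 2 minus CYR61 1 and of -0.734 with vector 2 minus vector 1, which describes genes of shared libraries. The keratin genes KRT8, KRT18, KRT19 and KRT7 summed to 4923 and 5526 CPM in CYR61 libraries and 4880 and 4155 CPM in vector libraries. Of the 6 hepatocyte markers, ALB, TTR and APOB were at 0 counts in the 4 libraries. With APOA1, TF and HNF4A, those 6 summed to 14 and 13.7 CPM in CYR61 libraries and 16.5 and 15.9 CPM in vector libraries. Fibroblast markers, 5 genes, summed to 34.7 and 36.1 CPM in CYR61 libraries and 46 and 37.6 CPM in vector libraries. The 10 leukocyte markers summed to 2.37 and 3.2 CPM in CYR61 libraries and 3.56 and 3.17 CPM in vector libraries. TYROBP, CD3E, MS4A1 and CD163 were at 0 counts in the 4 libraries.

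Promoter sequences are shown because the same short NF-kappaB motif precedes inhibitor genes that the cells expressed and chemokine genes that they hardly expressed. The bases are the 100 before the RefSeq transcription start on GRCh38.p14, written along the gene's strand, with matches on either strand to a pair of kappaB patterns in capitals. The wider pattern is GGG, any 2 bases, then TTTCC, and the narrower one is GGAATTTCC. The chemokine genes come first, in their order along chromosome 4, at chr4:73740469-73740568 (plus strand), chr4:73869293-73869392 (plus), chr4:73998678-73998777 (minus), chr4:74038690-74038789 (minus) and chr4:74099196-74099295 (minus).
CXCL8: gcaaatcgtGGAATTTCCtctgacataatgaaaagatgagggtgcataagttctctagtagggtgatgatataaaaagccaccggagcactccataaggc
CXCL1: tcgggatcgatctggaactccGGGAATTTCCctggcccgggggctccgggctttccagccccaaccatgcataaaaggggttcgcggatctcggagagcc
CXCL5: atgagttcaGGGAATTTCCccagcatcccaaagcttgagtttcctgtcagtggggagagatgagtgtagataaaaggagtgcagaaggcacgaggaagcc
CXCL3: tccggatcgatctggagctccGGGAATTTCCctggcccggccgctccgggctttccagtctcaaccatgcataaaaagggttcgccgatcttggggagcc
CXCL2: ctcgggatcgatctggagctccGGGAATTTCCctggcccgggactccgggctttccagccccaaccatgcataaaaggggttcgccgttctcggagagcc

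The inhibitor genes NFKBIA (chr14:35404750-35404849, minus) and TNFAIP3 (chr6:137867159-137867258, plus), the subunit gene NFKB1 (chr4:102501259-102501358, plus, the start with a match of 2 in the table) and the cytokine gene IL6 (chr7:22727100-22727199, plus) follow.
NFKBIA: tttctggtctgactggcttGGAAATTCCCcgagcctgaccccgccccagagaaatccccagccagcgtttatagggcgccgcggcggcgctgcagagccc
TNFAIP3: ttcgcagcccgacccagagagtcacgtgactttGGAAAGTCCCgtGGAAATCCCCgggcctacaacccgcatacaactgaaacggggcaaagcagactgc
NFKB1: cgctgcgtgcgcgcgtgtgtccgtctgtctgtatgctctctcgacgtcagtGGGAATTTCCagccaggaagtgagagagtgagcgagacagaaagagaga
IL6: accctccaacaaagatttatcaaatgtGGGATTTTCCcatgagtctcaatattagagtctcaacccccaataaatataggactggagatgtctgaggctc

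The RefSeq promoter table held 39 of the 50 members, and 250 bases before each start were searched on both strands. The wider pattern was found for 17 of these 39 members, and for 2.12% of the 27305 symbols in the table. GGAATTTCC was found for 11 members and 0.502% of symbols, and it lies inside the wider pattern wherever a G precedes it, so these counts overlap. Several spellings were looked at before these were kept. The members were also listed for their place in NF-kappaB and cytokine pathways, so these shares are no test of the members. Of the 19 members with either match, 13 were kept at 1 CPM, with a median log2 fold change (CYR61-expressing minus vector) of -0.20. Of the 20 members in the table without a match, 17 were kept, with a median of -0.22. By edgeR at an adjusted p below 0.05, 0 of the 13 with a match and 4 of the 17 without one were lower with CYR61, beside 4.56% of all tested genes. Members missing from the table were RELB, NFKBIE, LIF, IL18, CXCL16, CCL2, CCL5, CSF1, CSF3, TNFRSF12A and SOCS2. CSF1 and SOCS2, both called lower, are therefore in neither group. With the GC trend of each library removed, 5 were lower and 1 higher of the 13 with a match, and 6 were lower and 1 higher of the 17 without one, beside 13.2% lower and 14.8% higher of all tested genes. Whether members with and without a match differ was not tested. A match describes these letters in these windows and is not evidence of binding.

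Fewer transcripts of several signalling and secreted members were found with CYR61. By edgeR's quasi-likelihood test with Benjamini-Hochberg adjustment over 12698 tested genes, 6 of the 39 kept members fell at an adjusted p below 0.05, set against 4.56% of all tested genes, and 0 rose, set against 1.83% of tested genes. The 6 were the cytokine genes IL11 and CSF1, the receptor genes IL6ST and OSMR, the adaptor gene TRAF1 and the feedback gene SOCS2. The log2 fold change, CYR61-expressing minus vector, was below 0 in 34 kept members (87.2%), beside 50.8% of tested genes. Its median was -0.22 over the kept members, beside -0.01 over the tested genes. Both CYR61 libraries lay below both vector libraries in 26 kept members (66.7%), beside 27.7% of tested genes, and above both in 2 (5.13%), beside 23.9%. The 4 libraries of each member share depth and composition, so members are not independent of each other. In these bulk samples, fewer expressing cells and less RNA per cell cannot be told apart.

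**Figure D1:**
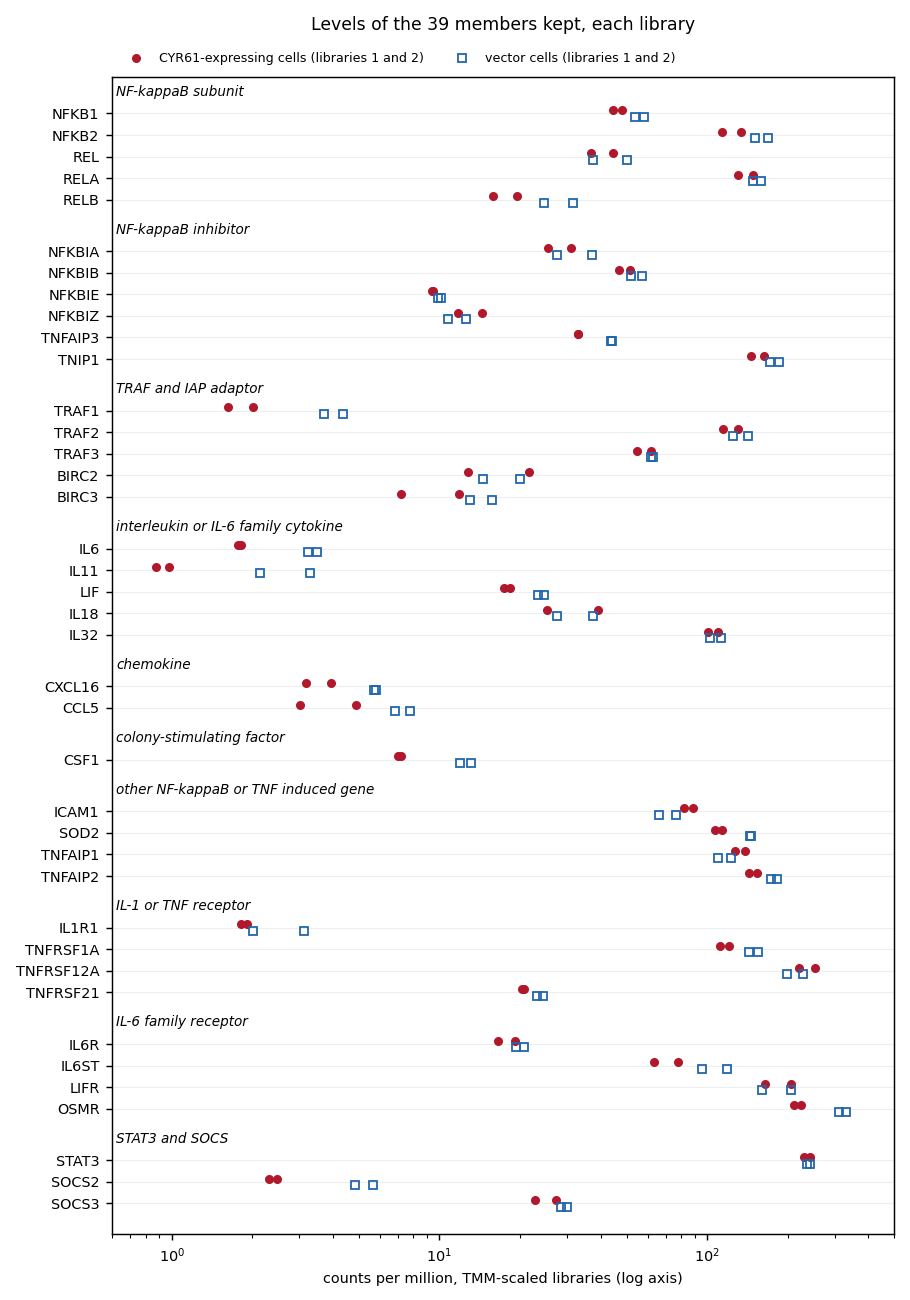
Level in CPM (log axis) of the 39 kept members in each library, by role. Filled red circles are the CYR61 libraries and open blue squares the vector libraries. In OSMR, SOCS2, CSF1, IL6, IL11 and TRAF1 the symbols of the groups are apart, and in STAT3, IL32, RELA and LIFR they overlap or nearly touch.

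**Figure D2:**
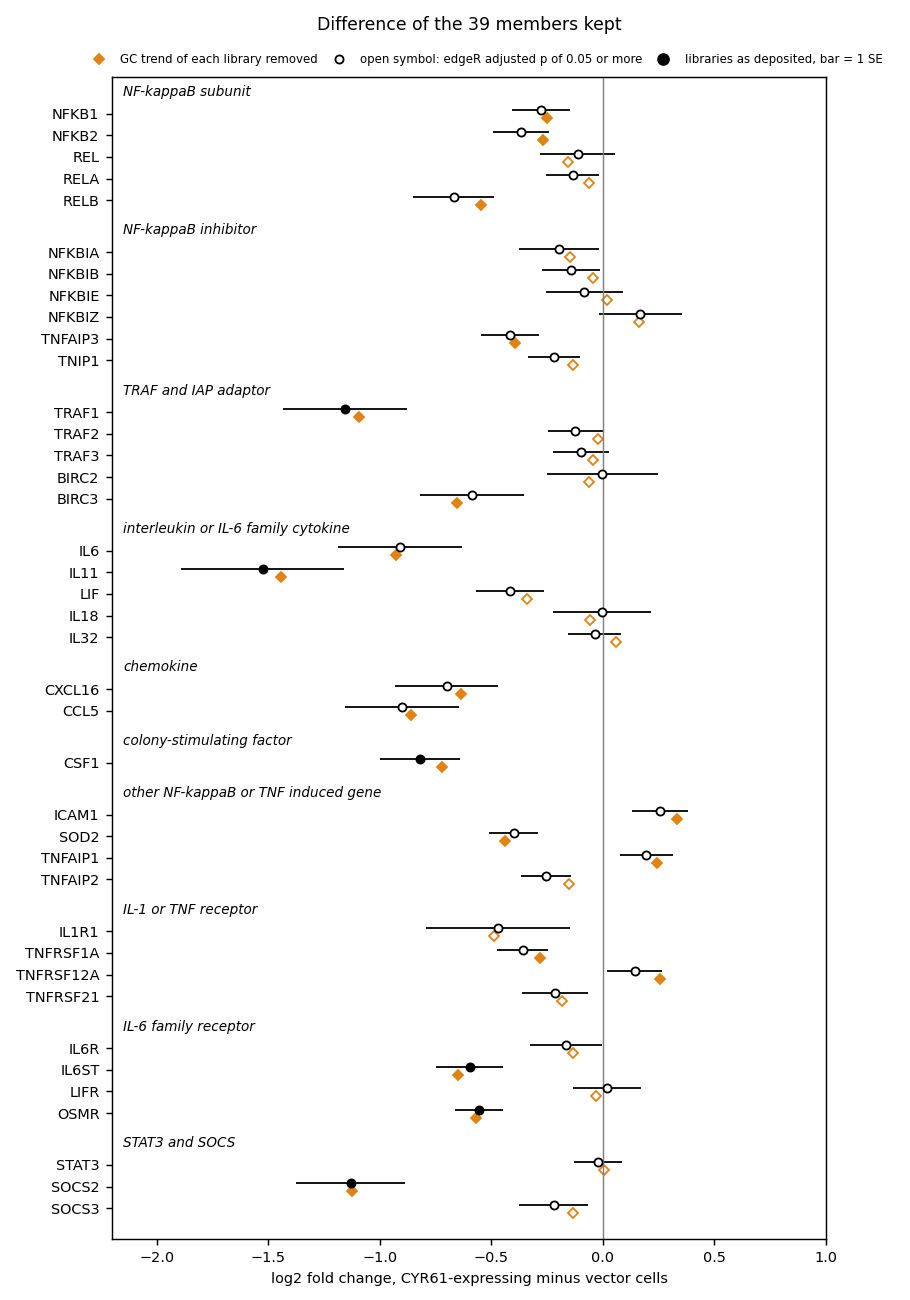
Log2 fold change (CYR61-expressing minus vector cells) of the 39 kept members, with 1 SE, from the libraries as deposited (circles) and with the GC trend of each library removed (diamonds, no bar drawn). Filled symbols have an edgeR adjusted p below 0.05. There are 6 filled circles, all left of 0, and 19 filled diamonds, of which 16 lie left of 0 and 3 right of it.

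Among the cytokines of the gp130 family, IL11 fell. IL11, a stromal cytokine of this family (chromosome 19, 55364389 to 55370463, minus strand), was at 0.977 and 0.877 CPM in CYR61 cells, against 3.29 and 2.13 CPM in vector cells, from 21 and 14 counts against 62 and 47. Both CYR61 libraries were low and the vector libraries differed from each other. It fell by 1.53 on the log2 scale (SE 0.36, edgeR adjusted p = 0.036). Leaving out vector 1 ended the call (-1.19, edgeR adjusted p = 0.275), as did limma-voom (adjusted p = 0.0502) and DESeq2 (adjusted p = 0.0699). IL11 was the 1 kept member with a group mean under 1 CPM.

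IL6, the cytokine that gives the family its name and the main inducer of acute phase proteins (chromosome 7, 22725884 to 22732002, plus strand), was at 1.77 and 1.82 CPM in CYR61 cells and 3.24 and 3.49 CPM in vector cells. The groups did not overlap, with close agreement inside each. The log2 fold change was -0.91 (SE 0.28), and the call was missed (edgeR adjusted p = 0.0849). LIF, which maintains stem cells in mouse and signals through LIFR and gp130, was at 18.4 and 17.4 CPM with CYR61, against 23.3 and 24.5 CPM with vector. Its groups did not overlap either, at -0.42 on the log2 scale (SE 0.15, edgeR adjusted p = 0.13).

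IL18 and IL32 overlapped between groups, and the interleukin-1 genes were hardly counted. IL18, an inflammasome-processed cytokine, averaged 32.2 ± 9.89 CPM in CYR61 cells and 32.4 ± 7.03 CPM in vector cells (SD, n = 2 each), with wide scatter inside both groups. IL32, an inducer of other cytokines, averaged 105 ± 6.44 CPM in CYR61 cells and 108 ± 7.55 CPM in vector cells (SD, n = 2 each), the highest level per exon length among the cytokines of the 50 members. Of the interleukin-1 genes, IL1A had 0 and 0 counts with CYR61 and 2 and 5 with vector, and IL1B had 0 and 0 counts with CYR61 and 1 and 0 with vector. These are at the level of single reads, so no fold is given.

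Most chemokine genes were close to silent in HLE cells. CXCL1, CXCL5 and CCL20 had 0 counts in the 4 libraries, which allows up to 0.136 to 0.188 CPM per library at 3 counts, covering counting error only. CXCL8, the neutrophil attractant interleukin-8 (chromosome 4, 73740506 to 73743716), had 1 and 4 counts with CYR61, against 7 and 15 with vector. Both CYR61 libraries were lower, and without a filter the edgeR adjusted p was 0.21. CXCL2 had 8 and 5 counts with CYR61 and 13 and 7 with vector, and CXCL3 had 6 and 3 with CYR61 and 4 and 12 with vector, overlapping in both genes. CXCL1, CXCL2 and CXCL3 are close paralogs whose reads may be divided, but none had more than 13 counts. CCL2, a monocyte attractant, had 4 and 4 counts with CYR61 and 1 and 2 with vector. For CCL2 both CYR61 libraries were higher, and without a filter the edgeR adjusted p was 0.622. The CXCL genes of chromosome 4 named here are the ones whose promoters are printed above, each with GGAATTTCC in the last 100 bases before the start.

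**Figure D3:**
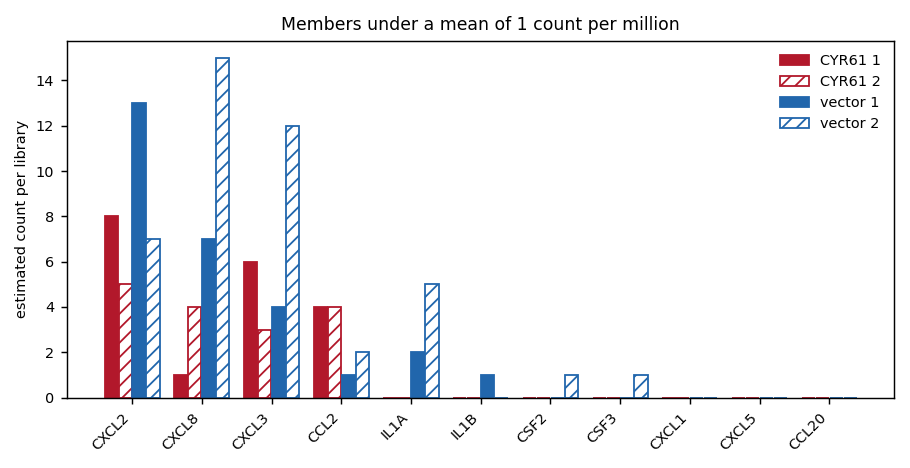
Estimated counts in each library of the 11 members under a mean of 1 CPM, red for CYR61 and blue for vector. The highest bar is 15 counts, CXCL8 in vector 2, and CXCL1, CXCL5 and CCL20 have none.

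A pair of chemokine genes were kept, and both lay lower with CYR61 without being called. CCL5, a T-cell attractant also called RANTES, was at 3.02 and 4.89 CPM in CYR61 cells, against 7.75 and 6.84 CPM in vector cells. The CYR61 libraries differed from each other but lay below the vector libraries. The log2 fold change was -0.90 (SE 0.26, edgeR adjusted p = 0.0673). For CCL5 it was -0.56 without CYR61 1, -1.27 without CYR61 2, -0.81 without vector 1 and -0.98 without vector 2. CXCL16, a membrane-bound chemokine that also takes up oxidised lipoprotein, was at 3.16 and 3.95 CPM with CYR61, against 5.79 and 5.71 CPM with vector. Its groups did not overlap, at -0.70 on the log2 scale (SE 0.23, edgeR adjusted p = 0.101). CXCL16 shares 3.04% of its exon bases with MED11 on the opposite strand. MED11 had 245 and 199 counts with CYR61 and 189 and 171 with vector.

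Of the colony-stimulating factors, CSF1 was the expressed gene, and it fell. CSF1, the growth factor of macrophages (chromosome 1, 109910242 to 109930992, plus strand), was at 6.98 and 7.2 CPM in CYR61 cells, against 13.1 and 11.9 CPM in vector cells. Libraries of each group lay close together and the groups were far apart. The log2 fold change was -0.82 (SE 0.18, edgeR adjusted p = 0.0247), a 1.76-fold fall. Leaving out a library gave -0.75 to -0.88, with the call lost without vector 1 (edgeR adjusted p = 0.117) and, by a narrow margin, without CYR61 1 (edgeR adjusted p = 0.0501). CSF2 and CSF3, the growth factors of granulocytes and macrophages, each had 1 count in vector 2 and 0 in the other libraries.

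Among receptor subunits of the gp130 family, OSMR and IL6ST fell and LIFR and IL6R were not called. OSMR, the oncostatin M receptor (chromosome 5, 38845858 to 38945596, plus strand), was at 224 and 212 CPM in CYR61 cells, against 311 and 329 CPM in vector cells. The difference between groups was several times the spread inside either. It fell by 0.56 on the log2 scale (SE 0.11, edgeR adjusted p = 0.0155), was called when any library other than vector 2 was left out, and was at -0.51 without vector 2 (edgeR adjusted p = 0.11). OSMR shares 3.19% of its exon bases with RICTOR on the opposite strand. RICTOR had 1591 and 1037 counts with CYR61 and 1554 and 2597 with vector.

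IL6ST, encoding gp130 (chromosome 5, 55935095 to 55994993, minus strand), was at 78 and 63.2 CPM in CYR61 cells, against 95.3 and 118 CPM in vector cells. The groups did not overlap, but the libraries inside each group differed. It fell by 0.60 on the log2 scale (SE 0.15, edgeR adjusted p = 0.0439). The call was lost without CYR61 2 (-0.45, edgeR adjusted p = 0.0996), without vector 2 (-0.43, edgeR adjusted p = 0.269) and with library size alone as the scaling (-0.61, edgeR adjusted p = 0.0742). At 36.6% GC it is among the members whose libraries differ inside each group along GC content, and with that trend removed it was at -0.65 (edgeR adjusted p = 0.000139).

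LIFR, which pairs with gp130 for LIF and oncostatin M, was at 206 and 164 CPM with CYR61 and 160 and 206 CPM with vector, overlapping fully. IL6R, the alpha chain that binds interleukin-6, was at 16.6 and 19.2 CPM with CYR61 and 19.4 and 20.7 CPM with vector, at a log2 fold change of -0.17 (edgeR adjusted p = 0.58). Whether OSMR or IL6ST changed more than LIFR or IL6R was not tested.

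Downstream of gp130, STAT3 was not called and SOCS2 fell. STAT3, the transcription factor of the family, was at 229 and 241 CPM with CYR61 and 236 and 242 CPM with vector, at -0.02 on the log2 scale (SE 0.11, edgeR adjusted p = 0.925). SOCS2, a suppressor of growth hormone and cytokine signalling induced through STAT5 (chromosome 12, 93569814 to 93583487, plus strand), was at 2.47 and 2.32 CPM in CYR61 cells, against 4.83 and 5.66 CPM in vector cells. Its groups were well apart. It fell by 1.13 on the log2 scale (SE 0.25, edgeR adjusted p = 0.0245) or 2.19-fold, and the call was lost without vector 2 (edgeR adjusted p = 0.118). SOCS3, the feedback inhibitor bound to gp130, was at 22.7 and 27.3 CPM with CYR61 and 29.8 and 28.4 CPM with vector, at -0.22 (SE 0.15, edgeR adjusted p = 0.43).

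The 4 listed receptors of the TNF and interleukin-1 families were not called. TNFRSF12A, the receptor of the cytokine TWEAK, had the highest level per exon length of the members, at 128 CPM per kb with CYR61 and 116 with vector. It was at 219 and 252 CPM in CYR61 cells and 228 and 199 CPM in vector cells, with overlap. TNFRSF1A, the main TNF receptor, was at 112 and 121 CPM with CYR61 and 155 and 143 CPM with vector, apart between groups at -0.36 (SE 0.11, edgeR adjusted p = 0.0946). TNFRSF21, a death-domain receptor, was at -0.21 (SE 0.15). IL1R1, which binds interleukin-1, was at -0.47 (SE 0.32) with 1.82 to 3.13 CPM per library.

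Among adaptors, TRAF1 fell and its relatives were not called. TRAF1, an NF-kappaB-induced adaptor of TNF receptors (chromosome 9, 120902393 to 120929173, minus strand), was at 1.63 and 2 CPM in CYR61 cells, against 4.35 and 3.71 CPM in vector cells. The groups did not overlap, from 35 and 32 counts against 82 and 82. It fell by 1.16 on the log2 scale (SE 0.28, edgeR adjusted p = 0.0367) or 2.23-fold. The call was lost without CYR61 1 (-0.99, edgeR adjusted p = 0.13), vector 1 (-1.04, edgeR adjusted p = 0.183) or vector 2 (-1.26, edgeR adjusted p = 0.0526), and by DESeq2 (adjusted p = 0.0864).

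TRAF2, which recruits IAP proteins to TNF receptors, was at -0.12 (SE 0.12), and TRAF3, a brake on the alternative NF-kappaB route, at -0.10 (SE 0.13). BIRC3, an IAP ubiquitin ligase, was at 11.8 and 7.2 CPM in CYR61 cells, against 13.1 and 15.7 CPM in vector cells, at -0.59 (SE 0.23, edgeR adjusted p = 0.165). Its estimate moved with the libraries used, at -0.99 without CYR61 1, -0.29 without CYR61 2, -0.71 without vector 1 and -0.44 without vector 2. Its neighbour BIRC2, which also encodes an IAP ubiquitin ligase, was at 21.6 and 12.8 CPM with CYR61 and 14.6 and 20 CPM with vector, with a log2 fold change of -0.00 (SE 0.25).

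The 5 NF-kappaB subunit genes were all below 0 and none was called. RELB, the subunit of the alternative route (chromosome 19, 45001430 to 45038198, plus strand), differed most, at 15.9 and 19.5 CPM in CYR61 cells, against 31.6 and 24.6 CPM in vector cells. The groups did not overlap. The log2 fold change was -0.67 (SE 0.18, edgeR adjusted p = 0.0567), just outside the threshold. RELB was called by DESeq2 (adjusted p = 0.0345) and with no filter (edgeR adjusted p = 0.0032). It was not called by limma-voom (adjusted p = 0.0597) or with the replicate block (edgeR adjusted p = 0.183). The estimate was -0.51 without CYR61 1, -0.82 without CYR61 2, -0.48 without vector 1 and -0.83 without vector 2.

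NFKB2, whose product pairs with RELB, was at 113 and 133 CPM with CYR61, against 168 and 151 CPM with vector, at -0.37 (SE 0.13, edgeR adjusted p = 0.111). NFKB1, the p50 precursor, was at 44.3 and 48.2 CPM with CYR61, against 58.3 and 53.9 CPM with vector, at -0.28 (SE 0.13, edgeR adjusted p = 0.231). Both genes had groups that did not overlap. RELA, encoding p65 of the classical dimer, was at 130 and 149 CPM with CYR61 and 159 and 148 CPM with vector, at -0.14 (edgeR adjusted p = 0.542). REL was at 44.4 and 36.8 CPM with CYR61 and 37.6 and 50.4 CPM with vector, at -0.11 (edgeR adjusted p = 0.742), with a sign that turned when CYR61 2 (0.01) or vector 2 (0.12) was left out.

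The inhibitor genes, several of which NF-kappaB itself induces in many cells, were not called. TNFAIP3, encoding the ubiquitin-editing enzyme A20, was at 32.9 and 33 CPM in CYR61 cells, against 44.2 and 43.7 CPM in vector cells. Libraries of each group were nearly equal and the groups were apart, at -0.42 (SE 0.13, edgeR adjusted p = 0.0907). NFKBIA, the main IkappaB gene, was at 25.5 and 30.9 CPM with CYR61 and 37.3 and 27.5 CPM with vector, overlapping, at -0.20 (SE 0.18, edgeR adjusted p = 0.554), with a sign that turned without vector 1 (0.04).

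The inhibitor gene NFKBIB was at 47 and 51.7 CPM with CYR61 and 56.9 and 52.1 CPM with vector, at -0.14 (edgeR adjusted p = 0.556). NFKBIE was at 9.49 and 9.4 CPM with CYR61 and 10.1 and 9.88 CPM with vector, at -0.08 (edgeR adjusted p = 0.824). NFKBIZ, a nuclear IkappaB protein that can also activate genes, was at 11.8 and 14.5 CPM with CYR61 and 12.5 and 10.8 CPM with vector, at 0.17 (edgeR adjusted p = 0.634). TNIP1, a partner of A20, averaged 154 ± 12 CPM in CYR61 cells and 179 ± 9.77 CPM in vector cells (SD, n = 2 each), at -0.22 (edgeR adjusted p = 0.292).

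Other genes induced by TNF lay on both sides of 0. SOD2, the mitochondrial superoxide dismutase, was at 113 and 107 CPM in CYR61 cells, against 146 and 145 CPM in vector cells, at -0.40 (SE 0.11, edgeR adjusted p = 0.0614). A second gene model at this locus had 4.77 to 10.9 counts per library, and the sum of both models changed by -0.40. ICAM1, an adhesion receptor for leukocytes, was at 81.6 and 88.1 CPM in CYR61 cells, against 76.2 and 66 CPM in vector cells, the largest positive value of the kept members at 0.26 (SE 0.13, edgeR adjusted p = 0.264). TNFAIP1 was at 0.20 (SE 0.12) and TNFAIP2 at -0.25 (SE 0.11). ICAM1 and TNFAIP1 were the 2 kept members in which both CYR61 libraries lay above both vector libraries.

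Several estimates depended on 1 library. The count of kept members that fell was 5 without CYR61 1 (3.56% of genes tested in that fit), 7 without CYR61 2 (6.09%), 3 without vector 1 (2.91%) and 4 without vector 2 (3.49%). Over all tested genes, 811 were called with the 4 libraries, 1331 without CYR61 2 and 481 without vector 1.

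**Figure D4:**
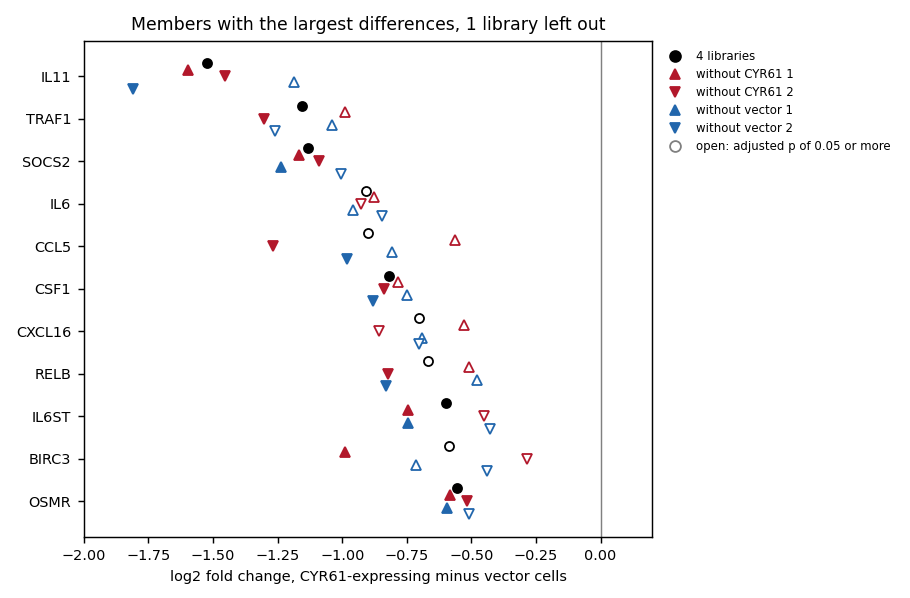
Log2 fold change (CYR61-expressing minus vector cells) of the 11 kept members with a log2 fold change beyond 0.5 in size, from the 4 libraries (circles) and with 1 library left out (triangles). Filled symbols have an edgeR adjusted p below 0.05. Every symbol lies left of 0, and BIRC3 and CCL5 spread most.

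GC content moved with the spread inside groups for these members too. Of the 6 kept members under 40% GC (IL6ST, LIFR, REL, IL18, BIRC2 and BIRC3), CYR61 1 was above CYR61 2 in 6, and vector 2 above vector 1 in 6. Of the 7 over 60% GC, CYR61 1 was below CYR61 2 in 6 and vector 2 below vector 1 in 7. With the GC trend of each library removed, 16 kept members were called lower, beside 13.2% of tested genes, and 3 higher, beside 14.8% of tested genes. Over all tested genes that fit called 1675 lower and 1875 higher, against 579 lower and 232 higher without the correction.

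The 6 members that fell in the libraries as deposited were called with the same sign after the correction. The 10 others called lower were RELB (-0.55), NFKB2 (-0.27), NFKB1 (-0.25), TNFAIP3 (-0.39), BIRC3 (-0.66), IL6 (-0.93), CXCL16 (-0.64), CCL5 (-0.86), SOD2 (-0.44) and TNFRSF1A (-0.28), with edgeR adjusted p of 0.00308 to 0.0385. The 3 called higher were ICAM1 (0.33), TNFRSF12A (0.25) and TNFAIP1 (0.24), with edgeR adjusted p of 0.00564 to 0.0202. The median over kept members was -0.16, beside 0.01 over the tested genes, and 4 kept members changed sign.

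**Figure D5:**
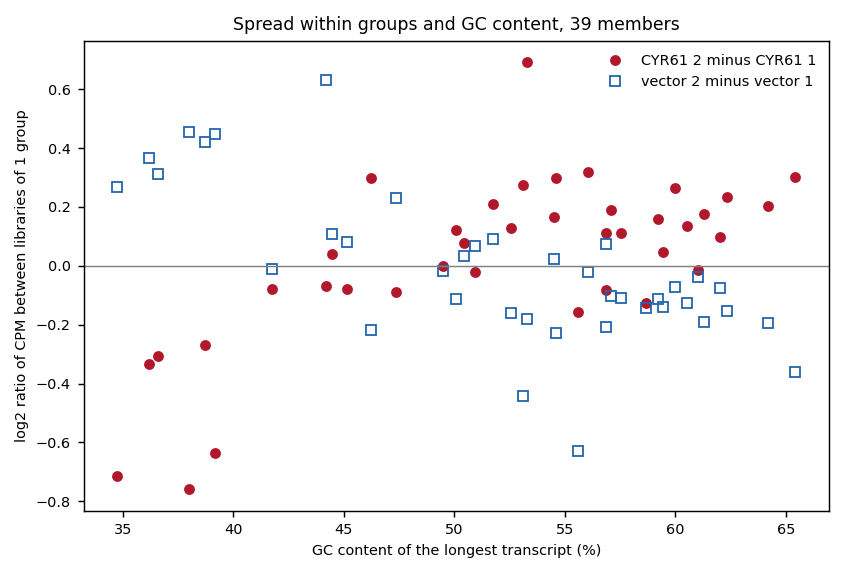
Log2 ratio of CPM between the 2 libraries of a group for the 39 kept members, against the GC content of the longest transcript. The 6 members under 40% GC lie below 0 for CYR61 2 minus CYR61 1 (red) and above 0 for vector 2 minus vector 1 (blue), and most members over 60% GC lie the other way.

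Genes of the same pathways outside the 50 members were counted from further lists. These too were drawn up with earlier results of these data known, so their counts are no separate test of the members. All tested genes of a list were counted, without the members' floor of a mean of 1 CPM. The counts are to be read beside the 4.56% of all tested genes that fell and the 1.83% that rose. With the GC trend removed those shares are 13.2% and 14.8%. Of 34 tested kinase and adaptor genes, 3 fell and 0 rose, with a median of -0.07, and with the GC trend removed 6 were lower and 3 higher. BCL3, a nuclear IkappaB protein, fell to 24.4 and 30.1 CPM in CYR61 cells, against 65.1 and 56.6 CPM in vector cells (-1.16, SE 0.15, edgeR adjusted p = 0.00195). RBCK1, a subunit of the linear ubiquitin ligase that serves TNF receptors, fell by 0.90 on the log2 scale, and IRAK2, a kinase of interleukin-1 and Toll-like receptors, by 0.76.

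Of 17 tested other NF-kappaB target genes, 4 fell and 0 rose, with a median of -0.41, and with the GC trend removed 11 were lower and 1 higher. That median includes TNFRSF9 (-2.11) and LCN2 (-1.38), whose means of 0.504 and 0.921 CPM are under the 1 CPM asked of members. IER3, an immediate-early survival gene, fell to 21 and 18.2 CPM in CYR61 cells, against 55 and 67 CPM in vector cells (-1.64, SE 0.16, edgeR adjusted p = 0.000365). PTGS2, the inducible cyclooxygenase, fell by 1.25 on the log2 scale, GADD45B by 0.89 and the transcription factor gene IRF1 by 0.74. Many of these genes also respond to other signals.

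Of 31 tested further cytokine, chemokine and receptor genes, 2 fell and 0 rose, near the shares over all tested genes, with a median of -0.14. With the GC trend removed 6 were lower and 3 higher. The called genes were IL20RB, a receptor chain for interleukins of the interleukin-10 family, at -1.50, and TNFRSF1B, the second TNF receptor, at -1.14. TNFRSF1B was at 1.81 and 2.57 CPM with CYR61, against 5.41 and 4.17 CPM with vector. Of 23 tested JAK, STAT and SOCS genes, 3 fell and 0 rose, with a median of -0.11, and with the GC trend removed 8 were lower and 0 higher. PIM1, a kinase gene induced by STAT factors, fell by 0.92 on the log2 scale, MCL1 by 0.63 and STAT5B by 0.48.

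Among acute phase genes of the liver the called ones were higher with CYR61. Of 6 tested, 2 rose and 0 fell, with a median of 0.49, and they were the fibrinogen chain genes FGB (1.85) and FGA (1.87). FGB was at 20.8 and 18.2 CPM with CYR61, against 5.84 and 5.03 CPM with vector. The classical acute phase genes CRP, SAA1 and SAA2 had at most 0.372 CPM in any library. Of 9 mitochondrial transcripts, MT-ND1 rose (0.70) and the median was 0.21. Those transcripts summed to 40297 and 37787 CPM in CYR61 libraries and 36547 and 39069 CPM in vector libraries, overlapping between groups.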

How the data were processed

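RNA from 4 cultures of HLE cells was sequenced. Estimated counts per gene, not normalized and 11.2% to 12.0% not whole, were deposited by the authors. Per the submitters' processing notes, hg38, TopHat2 2.1.1, Cufflinks 2.2.1 and Cuffdiff 1.3.0 were used; the counting program, annotation and strand setting are unstated. Strand-blind counting could mix overlapping opposite-strand genes (such as SOD2 with WTAP, CXCL16 with MED11 and OSMR with RICTOR), and reads may be divided between paralogs. REL, CCL5, SOD2 and TNFAIP1 had values that were not whole.

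Counts were rounded, filtered with filterByExpr, scaled by TMM (CPM use these sizes) and tested with edgeR 4.0.16 in R 4.3.3 (quasi-likelihood, 12698 of 20286 genes, Benjamini-Hochberg over all of them). The SE was taken as the size of the log2 fold change over the root of the F statistic. DESeq2 1.42.0, limma-voom (limma 3.58.1), other scalings and filters, a GC spline of 5 degrees of freedom per library, a replicate block and leaving out each library were alternatives. The fits were run on simulated counts with and without a GC trend, and the main fit recovered fewer changed genes with one. Positions, GC and exon length came from GENCODE 29 (GRCh38), which also named SOD2; promoters came from RefSeq GRCh38.p14.

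Members, lists and motifs were chosen with earlier results of these data known. Members were described by role; those called or beyond 0.5 in log2 fold change got full values. P-values measure only the spread between cultures.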

Additional observations from a re-analysis of the deposited data

How the results depend on the processing

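The 6 calls rest on 2 libraries a group, and each was lost without at least 1 library. Over all tested genes, 811 calls became 1677 with no filter, 3550 with the GC trend removed and 481 to 1331 with a library left out (lowest without vector 1, highest without CYR61 2). Members called lower (6) became 13 with no filter, 3 when genes needed 5 CPM in 2 libraries, 3 among members of mean 5 CPM or more, 16 with the GC trend removed and 3 to 7 with a library left out. Members called higher (0, beside 232 of 12698) became 3 with the GC trend removed (beside 1875 of 12698). The members' median became -0.16 with the GC trend removed, and -0.30 to -0.22 with a library left out.

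Replicate numbers only name cultures, so they were not taken to pair libraries. Deviations of same-numbered libraries correlated at -0.71. With the replicate block, 391 of 12698 tested genes were called, 338 lower and 53 higher. In that fit 2 members were lower (IL11 and SOCS2) and 1 of 23 JAK, STAT and SOCS genes was called. With the GC trend removed and the replicate block, 2048 of 12698 tested genes were called, 1022 lower and 1026 higher. In that fit 11 members were lower and 1 higher, and the members' median was -0.15. Calls were 5 of 34 kinase and adaptor genes, 8 of 17 other NF-kappaB targets and 5 of 31 other cytokine genes. Crossing the pairing, chosen after seeing the data, called 5624 of 12698 tested genes, 2876 lower and 2748 higher. In that fit 22 of 39 kept members were lower and 3 higher. Calls were 15 of 34 kinase and adaptor, 14 of 17 other target and 16 of 31 other cytokine genes. They were 10 of 23 JAK, STAT and SOCS, 4 of 6 acute phase and 8 of 9 mitochondrial genes. For kinase and adaptor genes and for JAK, STAT and SOCS genes this is near the share over all tested genes.

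With the GC trend removed, 13.2% of tested genes were lower and 14.8% higher, and the calls were 9 of 34 kinase and adaptor genes (6 lower), 12 of 17 other targets (11 lower), 9 of 31 other cytokine genes (6 lower), 8 of 23 JAK, STAT and SOCS genes (8 lower) and 5 of 9 mitochondrial transcripts (0 lower). Other cytokine genes called were 1 by DESeq2, 1 with library size alone, 4 with no filter and 1 with the filter of 5 CPM. Mitochondrial transcripts called were 3 with no filter. Over all tested genes, DESeq2 called 945 of 12698 and library size alone 682 of 12698. No filter called 1677 of 16069 and the filter of 5 CPM 749 of 10480. With a library left out, calls ranged from 2 to 5 (other targets), 1 to 4 (other cytokine genes), 1 to 2 (JAK, STAT and SOCS) and 1 to 2 (mitochondrial). Signs reversed for NFKBIE (0.0201 with the GC trend removed, 0.0175 with the block added), STAT3 (0.0047 and 0.0053 in these fits) and, with a library left out, STAT3 (-0.0611 to 0.0264), REL (-0.31 to 0.12) and NFKBIA (-0.397 to 0.037). The causes were not tested.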
